A study of Mus musculus with 4 samples.

Results

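Replication-dependent histone genes are described here across 4 RNA-seq libraries of natural killer (NK) cells from mouse spleen. The members were the protein-coding genes whose symbol in GENCODE vM21 begins with Hist1h, Hist2h, Hist3h or Hist4h, grouped by the protein they encode. Of 67 such genes in the annotation, 64 had a line in the gene tables, among 35275 genes in all, and Hist1h2bm, Hist1h2bh and Hist2h2bb were not analysed here. The 64 comprised 6 H1, 18 H2a, 15 H2b, 12 H3 and 13 H4 genes. NK cells were enriched from spleen and sorted as cells without CD3 and with NK1.1, and their total RNA went into mRNA libraries. The 4 groups held 1 library each. They were Irf4-/- treated and WT treated, from mice of either genotype that had received cells of the mouse melanoma line B16-F10 intravenously, with spleens taken on day 20, and Irf4-/- control and WT control. Treated is read here as injected, because the labels' protocol names no other treatment. What control mice received, the age and sex of the mice, how many animals went into a library and how the Irf4 allele was made are absent from the labels.

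Replication-dependent histone genes supply the core histones H2A, H2B, H3 and H4, around which DNA is wrapped, and the linker histone H1, which binds the DNA between nucleosomes. Their transcripts accumulate in S phase, when new DNA has to be packed, and decay when replication ends. Most carry no intron and no poly(A) tail: the 3′ end is cut just after a short stem-loop, which stem-loop binding protein holds through processing, export and translation. Replication-independent histone genes, such as those for H2A.Z and the linker histone H1f0, give polyadenylated transcripts outside S phase. Activated NK cells divide, and resting NK cells of the spleen largely do not.

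The 3′ stem-loop is a feature that most genes of the family share, so those of 7 members of the H1, H4, H3 and H2a classes described below are shown. They were read from the GENCODE vM21 transcripts (GRCm38), 5′ to 3′ on the gene's strand, with the 16 bases of the stem-loop in capitals.
Hist1h1c, chr13:23739505-23739534, plus strand: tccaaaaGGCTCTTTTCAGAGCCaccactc
Hist1h1e, chr13:23621775-23621804, minus strand: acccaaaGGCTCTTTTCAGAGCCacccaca
Hist1h1d, chr13:23555780-23555809, plus strand: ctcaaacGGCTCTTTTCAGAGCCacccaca
Hist1h4d, chr13:23581943-23581972, plus strand: aaccaaaGGCCCTTTTCAGGGCCactacct
Hist1h4i, chr13:22040959-22040988, minus strand: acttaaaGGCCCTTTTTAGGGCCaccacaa
Hist1h3a, chr13:23761883-23761912, minus strand: aaccaaaGGCTCTTTTCAGAGCCacacacg
Hist2h2ac, chr3:96220411-96220440, minus strand: ccaaaaaGGCTCTTTTTAGAGCCaccaaat
A histone stem-loop was found in 42 of the 64 members and in 6 of 21837 other protein-coding genes (0.0275%). It took 6 forms, of which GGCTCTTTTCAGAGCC stood in 24 members and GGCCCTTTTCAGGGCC in 7. The H4 genes shown have the stem of the second form. It lay 21 to 58 bases after the stop codon, with a median of 32, in the 41 models of 1 exon where the distance could be read. Of the 22 members without a match, 12 had models that stop at the stop codon and so hold no 3′ end. Hist2h2be and Hist1h2bc had no match in the annotated transcripts.

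Promoters of the most abundant linker histone genes are shown because H1 had the lowest summed ratio between the injected libraries. Each is the 150 bases before the transcript start, from RefSeq on GRCm38.p6, 5′ to 3′ on the gene's strand. Capitals mark the TATA box word TATAAA, the CCAAT box word, the H1 box word AAACACA and the octamer ATTTGCAT, on either strand.
Hist1h1c (H1f2 in RefSeq), chr13:23738657-23738806, plus strand: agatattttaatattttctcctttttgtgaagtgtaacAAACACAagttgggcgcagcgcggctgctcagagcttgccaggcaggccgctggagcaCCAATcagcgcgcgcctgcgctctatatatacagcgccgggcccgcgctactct
Hist1h1e (H1f4 in RefSeq), chr13:23622559-23622708, minus strand: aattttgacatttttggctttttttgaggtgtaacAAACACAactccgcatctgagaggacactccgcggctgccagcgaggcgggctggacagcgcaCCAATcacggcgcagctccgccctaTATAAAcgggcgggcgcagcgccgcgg
Hist1h1d (H1f3 in RefSeq), chr13:23554882-23555031, plus strand: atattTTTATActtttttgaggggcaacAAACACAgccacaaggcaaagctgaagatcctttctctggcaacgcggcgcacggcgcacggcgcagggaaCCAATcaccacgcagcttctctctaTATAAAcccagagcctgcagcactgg
RefSeq promoters (250 bases before the start and 50 after it) were matched for 59 of the 64 members through older symbols. TATAAA stood in 59.3% of these, against 13.6% of all promoters, and CCAAT in 84.7%, against 37.4%. CCAAT was in every matched H1, H2a, H2b and H3 promoter and in 3 of 12 H4 promoters. ATTTGCAT was in 7 of 18 H2a promoters, 4 of 13 H2b promoters and none of the others, against 1.74% of all promoters. AAACACA, a word added after the data were seen, was in 5 of 6 H1 promoters and 3 promoters of other members, against 7.18% of all. A match is a run of letters and not a measured binding site.

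Irf4 went against the labels. It had 236 counts in Irf4-/- treated, 57 in WT treated, 188 in Irf4-/- control and 93 in WT control. By edgeR's quasi-likelihood test its log2 level rose by 1.72 with the Irf4-/- label (SE 0.241, adjusted p 0.0049, 1.76e-11 to 0.0995 over the alternatives). The adjusted p was under 0.05 in 7 of the 8 alternatives. The counts cover the whole gene and do not show which exons the allele lacks, and every direction below is drawn between libraries as labelled. Totals were 15878159 to 21104881 counts. The WT treated library stood farthest from the rest, with root mean square log2 differences of 0.459 to 0.506 from the others, against 0.342 to 0.446 among the others. Summed CPM (counts scaled to the library total) of 12 NK markers were 12340 in WT treated and 13270 to 14840 in the other libraries. The 3 members known from testis, Hist1h1t, Hist1h2aa and Hist1h2ba, had no count in any library.

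Replication-dependent histone transcripts were a small share of each library. The 64 members together took 1469 counts in Irf4-/- treated, 2933 in WT treated, 1911 in Irf4-/- control and 2564 in WT control. The 5 members with the highest mean CPM held 49.6% of all member counts. Averaged over the 4 libraries, 27 members reached 1 CPM, 5 reached 5 CPM and 2 reached 10 CPM, namely Hist1h1c and Hist2h2be. Of the other 37 members, 9 had no count anywhere and 28 had a count in some library, at most 29. A count of 0 allows up to 0.161 CPM in Irf4-/- treated, and counting intervals and such limits cover counting error only. The labels name an mRNA library kit but not how the transcripts were primed, so the counts do not give the share of histone transcripts without a poly(A) tail.

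Near-identical copies limit what can be said of single members. Of the 9 members without a count, Hist2h2aa1, Hist2h2aa2, Hist2h3c1 and Hist2h3b share 100% of the 50-base words of their transcripts with another gene. Over the 27 members at 1 CPM or more that share was 0% to 90.1%, with a median of 31.5%, and it exceeded 50% in 7. It was 8.54% for Hist1h1c, 28.9% for Hist1h4i and 0% for Hist2h2be, and 90.1% for Hist1h2ai and 89.8% for Hist1h4m, whose values are uncertain for that reason. These shares are over the GENCODE vM21 models, and for 12 of the 27 members the length that the deposited FPKM imply differs from that model by more than 1 bp, being shorter in 11. Among these are Hist1h1d, with 744 bp in place of 7425, Hist1h1e, with 748 in place of 1930, and Hist1h4d, with 393 in place of 1138. Their shares of 2.25%, 32% and 10.2% over the whole model need not hold for the part that was counted. Exons of 23 members overlap another gene in the GENCODE vM21 models, which likewise need not be the models counted. Among these Hist1h1e shares exon sequence with Hist1h2be on the same strand.

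Per unit of length, H4 and H1 genes were the most abundant members. By the authors' FPKM (fragments scaled to gene length and library size), the highest means over the 4 libraries were those of Hist1h1c at 14.7, Hist1h4d at 14.2, Hist1h1e at 12.7 and Hist1h4i at 12.1. The next were Hist1h4c at 8.90, Hist1h2ai at 8.43 and Hist1h3a at 7.62. The highest H2b genes were Hist3h2ba at 5.40, Hist1h2bj at 5.12 and Hist2h2be at 4.80 FPKM, so Hist2h2be, although the member with the next most counts after Hist1h1c, was a moderate one per length. The 13 H4 genes made up 32.3% of the members' summed FPKM in Irf4-/- treated, 33.7% in WT treated, 30.8% in Irf4-/- control and 31.2% in WT control.

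**Figure D1:**
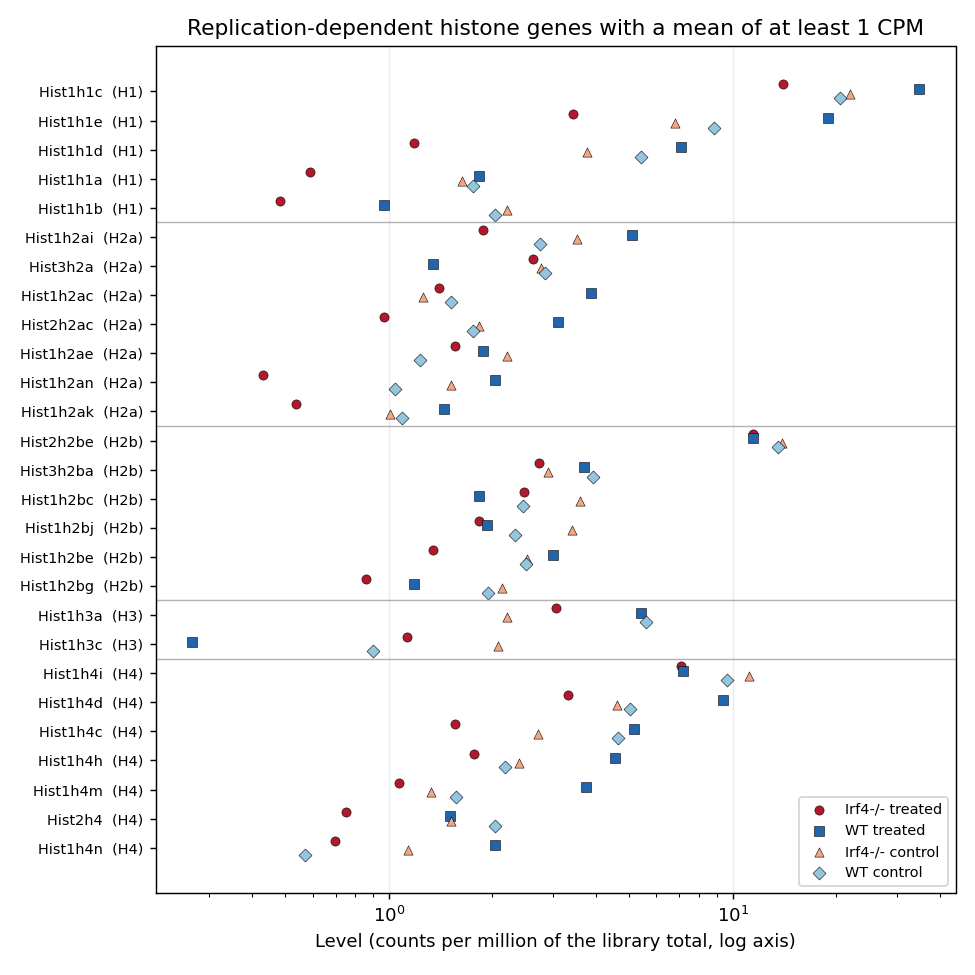
Level of each of the 27 members that averaged 1 CPM or more in the 4 libraries (log axis, CPM of the library total), ordered by class and mean level. The point of WT treated is the rightmost for 15 members and that of Irf4-/- treated the leftmost for 19.

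The summed level of the members was lowest in Irf4-/- treated and highest in WT treated, while the control libraries lay between and close to each other. It was 78.8 CPM in Irf4-/- treated (95% Poisson interval 74.8 to 83.0), 157.3 in WT treated (151.7 to 163.1), 120.4 in Irf4-/- control (115 to 125.9) and 121.5 in WT control (116.8 to 126.3). The authors' FPKM gave the same order, with sums of 107.8, 227.7, 167.6 and 168.6 in those libraries. In these bulk samples fewer cells with histone transcripts and less such RNA per cell cannot be told apart. The 37 members under 1 CPM had sums of 8.64 CPM in Irf4-/- treated (7.36 to 10.1), 12.6 in WT treated (11.1 to 14.3), 12.3 in Irf4-/- control (10.6 to 14.1) and 11.9 in WT control (10.4 to 13.4), so there Irf4-/- treated alone lay below the intervals of the others.

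Of the 27 members at 1 CPM or more, 15 were highest in WT treated, against 32.3% of all genes at that level, and 19 were lowest in Irf4-/- treated, against 21.1%. Highest in WT treated and lowest in Irf4-/- treated were 13 of 27 members (48.1%), against 8.78% of 11870 genes. They were the linker histone genes Hist1h1a, Hist1h1c, Hist1h1d and Hist1h1e, the H2a genes Hist1h2ai, Hist1h2ak, Hist1h2an and Hist2h2ac, the H2b gene Hist1h2be and the H4 genes Hist1h4c, Hist1h4d, Hist1h4h and Hist1h4m. No member was highest in Irf4-/- treated, against 21.4% of all genes.

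The classes differed in how far the libraries lay apart. Linker histone genes summed to 19.7 CPM in Irf4-/- treated, 63.6 in WT treated, 36.4 in Irf4-/- control and 38.6 in WT control. H4 genes summed to 18.3, 37.1, 27.8 and 28.3 CPM in the same libraries, and H2a genes to 11.6, 20.6, 16.1 and 15.5 CPM. For H3 the sums were 6.81, 10.4, 8.88 and 10.1 CPM. H2b was the exception, with 22.4 CPM in Irf4-/- treated, 25.6 in WT treated, 31.1 in Irf4-/- control and 29.1 in WT control. A single gene, Hist2h2be, gave 213 of the 418 H2b counts in Irf4-/- treated and 213 of the 478 in WT treated. H1 genes made up 25% of the members' summed CPM in Irf4-/- treated, 40.4% in WT treated, 30.2% in Irf4-/- control and 31.7% in WT control, and H2b genes 28.5%, 16.3%, 25.9% and 23.9%, whereas the H4 share lay between 23.1% and 23.6% in all 4.

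**Figure D2:**
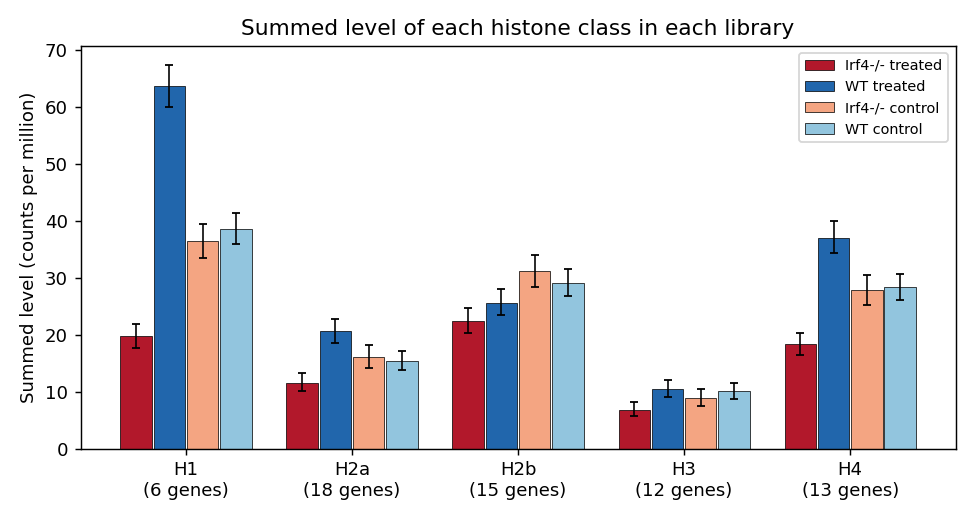
Summed CPM of each histone class in each library, with 95% Poisson counting intervals (1 library a group). The H1 bar of WT treated, at 63.6 CPM, stands above those of the other libraries, at 19.7 to 38.6 CPM, and the H2b bars lie between 22.4 and 31.1 CPM.

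Between the genotypes in injected mice, the summed ratio of the members was -1.0 on the log2 scale (95% counting interval -1.09 to -0.91), Irf4-/- treated over WT treated. With 1 library a group, each ratio between a pair of libraries compares those libraries, has no p-value and carries counting error only. By class the summed log2 ratio was -1.69 for H1 (-1.87 to -1.53), -1.02 for H4 (-1.21 to -0.83), -0.83 for H2a (-1.08 to -0.59), -0.61 for H3 (-0.95 to -0.28) and -0.20 for H2b (-0.39 to 0.00). The intervals of H1 and H2b did not overlap each other or that of any other class but for H2b with H3. The H2b value rests in large part on Hist2h2be, with 213 counts in each of these libraries. Among members with 5 CPM or more in the pair, 3 of 5 were at least 2-fold lower, Hist1h1c, Hist1h1e and Hist1h4d, against 0.661% of all genes, and 0 of 5 were at least 2-fold higher, against 1.14%. From 1 CPM on, 14 of 24 members were lower, against 1.71%, and 0 higher, against 2.06%. Of the 24 members 5 reached 5 CPM, against 9685 of 11870 genes. The shares of all genes from 1 CPM on, here and for the other pairs, are thus not matched for level. Counting intervals alone lay below 0 in 16 of these 24 members, against 24.8% of all genes, and above 0 in 1, against 25.6%.

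Linker histones stood at the low end of this pair. Hist1h1c (ENSMUSG00000036181, chromosome 13, 23738808 to 23740367, plus strand), a somatic H1 and the member with the most counts, had 14.0 CPM in Irf4-/- treated, 34.9 in WT treated, 21.98 in Irf4-/- control and 20.6 in WT control. WT treated was the highest library and Irf4-/- treated the lowest, and the log2 ratio of the injected libraries was -1.31 (-1.53 to -1.11). Hist1h1e (ENSMUSG00000051627, 23620629 to 23622558, minus strand), another somatic H1, had 3.43 CPM in Irf4-/- treated, 18.9 in WT treated, 6.80 in Irf4-/- control and 8.81 in WT control, a 5.38-fold difference between the injected libraries (log2 ratio -2.43, -2.87 to -2.08). Hist1h1d (ENSMUSG00000052565, 23553262 to 23560686, plus strand) had 1.18, 7.08, 3.78 and 5.40 CPM in the same libraries, from 22, 132, 60 and 114 counts, and a log2 ratio of -2.48 (-3.31 to -1.93), and stayed below the mean of 5 CPM that a call needs. These 3 genes hold most H1 counts. Without Hist1h1c the H1 sum was still 5.69 CPM in Irf4-/- treated (4.66 to 6.88), 28.8 in WT treated (26.4 to 31.3), 14.4 in Irf4-/- control and 18.0 in WT control.

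The other linker histones were rarer. Hist1h1a had 11 counts in Irf4-/- treated, 34 in WT treated, 26 in Irf4-/- control and 37 in WT control, with a log2 ratio of -1.47 (-2.76 to -0.62) between the injected libraries. Hist1h1b had 9, 18, 35 and 43 counts in those libraries and a ratio of -0.87 (-2.34 to 0.23), an interval that holds 0. In Hist1h1b both injected libraries lay below both control libraries, unlike in the other H1 genes.

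Among H4 genes, which all encode the same core histone, the injected libraries differed in 6 of the 7 at 1 CPM or more. Hist1h4d (ENSMUSG00000061482, 23581598 to 23582735, plus strand) had 3.33 CPM in Irf4-/- treated, 9.39 in WT treated, 4.60 in Irf4-/- control and 5.02 in WT control, with a log2 ratio of the injected libraries of -1.47 (-1.94 to -1.07). Hist1h4c had 1.56, 5.15, 2.71 and 4.64 CPM in these libraries and a ratio of -1.66 (-2.38 to -1.12). The counts of Hist1h4m, Hist1h4h and Hist1h4n were fewer, 12 to 85 a library, and the ratios were -1.71, -1.32 and -1.42. Hist1h4i (ENSMUSG00000060639, chromosome 13, 22040636 to 22041362, minus strand) did not differ in this way. It had 7.08 CPM in Irf4-/- treated, 7.19 in WT treated, 11.2 in Irf4-/- control and 9.62 in WT control, with a ratio of -0.02 (-0.38 to 0.33).

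Core histone H2a genes of the Hist1 and Hist2 clusters were mostly lower in Irf4-/- treated than in WT treated. Hist1h2ai had 35 counts in Irf4-/- treated, 95 in WT treated, 56 in Irf4-/- control and 58 in WT control, and a log2 ratio of -1.39 (-2.05 to -0.87) between the injected libraries. Hist1h2ac, with 26, 72, 20 and 32 counts in those libraries, was at -1.41 (-2.18 to -0.81), and WT treated alone was high. Hist1h2ae had 29, 35, 35 and 26 counts and a ratio of -0.26 (-1.04 to 0.48). Hist3h2a, in the small Hist3 cluster of chromosome 11, lay the other way at 0.91 (0.24 to 1.72), from 49 counts in Irf4-/- treated, 25 in WT treated, 44 in Irf4-/- control and 60 in WT control. Its exons overlap those of Trim17. Hist3h2a was named after its values were seen.

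H2b genes showed the smallest class difference. Hist2h2be (ENSMUSG00000068854, chromosome 3, 96221119 to 96223738, plus strand), known in mouse as a variant of olfactory neurons, had 213 counts in Irf4-/- treated, 213 in WT treated, 221 in Irf4-/- control and 286 in WT control. That is 11.4, 11.4, 13.9 and 13.6 CPM, and a log2 ratio of 0.00 between the injected libraries (-0.28 to 0.28). The interval leaves out the 2-fold differences of Hist1h1c, Hist1h1e and Hist1h4d. Hist3h2ba had 51, 69, 46 and 83 counts in the same libraries, with a ratio of -0.43 (-0.99 to 0.10), and Hist1h2bj had 34, 36, 54 and 49 counts, with a ratio of -0.08 (-0.81 to 0.63). Of the 6 H2b genes at 1 CPM or more, Hist1h2be alone had an interval below 0, at -1.11 (-1.91 to -0.46), and it is the gene whose exons overlap Hist1h1e.

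Few H3 genes reached 1 CPM, and their ratios lay on both sides of 0. Hist1h3a had 57 counts in Irf4-/- treated, 101 in WT treated, 35 in Irf4-/- control and 118 in WT control, so that both libraries labelled Irf4-/- lay below both WT libraries. Its log2 ratio was -0.81 (-1.32 to -0.35) between the injected libraries. Hist1h3c went the other way, with 21, 5, 33 and 19 counts in those libraries and a ratio of 1.71 (0.62 to 3.83). Hist1h3h, under 1 CPM on average, had 8, 20, 11 and 9 counts, and its transcript shares 93.9% of its 50-base words with other genes.

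The control pair did not show this difference. The summed log2 ratio of the members, Irf4-/- control over WT control, was -0.03 (-0.12 to 0.05), and that of each class had an interval that held 0, from -0.19 for H3 (-0.51 to 0.12) to 0.08 for H2b (-0.10 to 0.25). With 5 CPM or more, 0 of 4 members were at least 2-fold higher, against 0.694% of all genes, and 0 were at least 2-fold lower, against 0.104%. From 1 CPM on, 1 of 28 members was higher, against 1.36%, and 1 lower, against 0.491%, and intervals lay above 0 in 2, against 14.6%, and below 0 in 4, against 19.9%. The median of the 27 members was 0.02 here and -1.28 in the injected pair, with medians over all genes of -0.02 and 0.00. Single members still differed between the control libraries. Hist1h3a was at -1.32 (-1.95 to -0.81), Hist1h4c at -0.77 (-1.35 to -0.27), Hist1h1d at -0.52 (-1.01 to -0.07) and Hist1h1e at -0.39 (-0.75 to -0.04), while Hist1h3c was at 1.1 (0.33 to 2.08) and Hist1h2ae at 0.77 (0.05 to 1.61). Hist1h1c, at 0.08 (-0.13 to 0.28), and Hist1h4d, at -0.14 (-0.60 to 0.30), were not among them. Whether the injected and the control pair differ in their genotype ratio could not be tested, since no degree of freedom is left for that term.

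**Figure D3:**
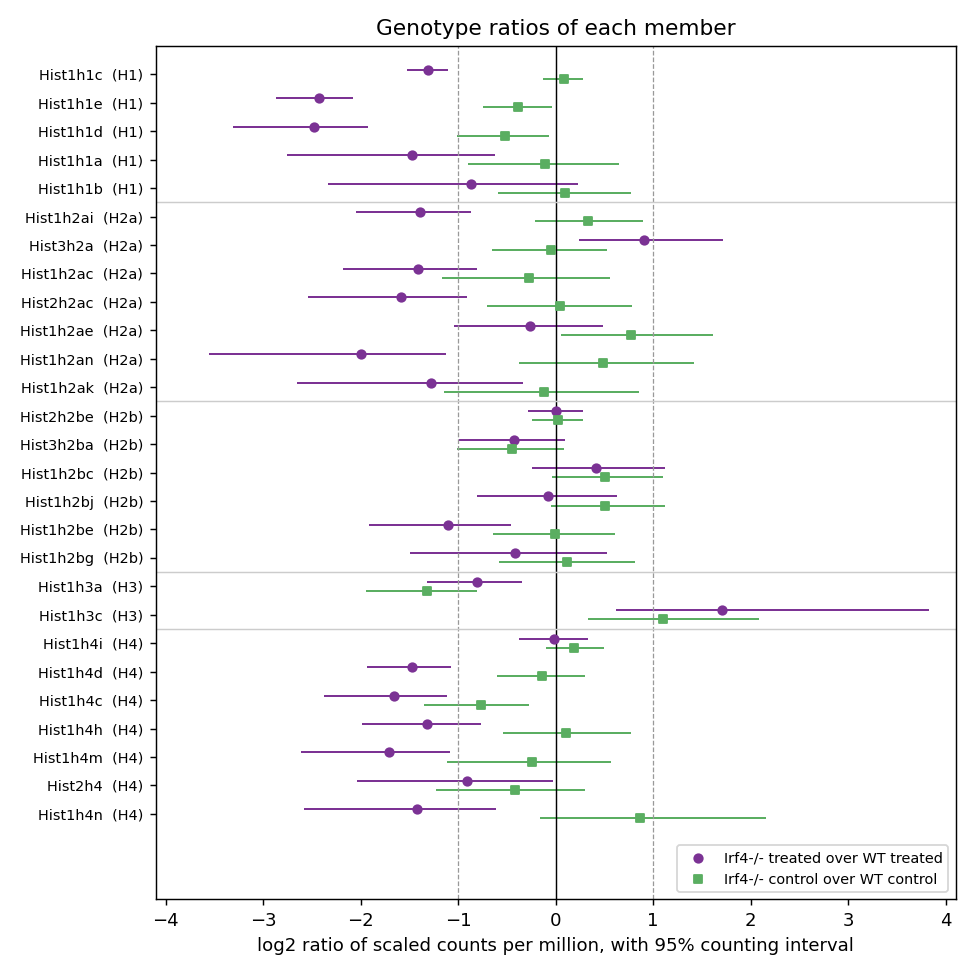
log2 ratio of each of the 27 members between the genotypes, in injected (circles) and in control mice (squares), with 95% counting intervals, and dashed lines at 2-fold. In injected mice 17 intervals lie below 0 and 2 above, and in control mice 4 lie below and 2 above.

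The injected libraries of the 2 genotypes lay on opposite sides of their controls. In Irf4-/- treated over Irf4-/- control the summed log2 ratio of the members was -0.60 (-0.70 to -0.50), and in WT treated over WT control it was 0.37 (0.30 to 0.45). H1 was at -0.87 (-1.07 to -0.68) in Irf4-/- and 0.72 (0.59 to 0.85) in WT. H4 was at -0.59 in Irf4-/- and 0.39 in WT, and H2a at -0.46 in Irf4-/- and 0.41 in WT. H2b was lower in both, at -0.46 (-0.65 to -0.27) in Irf4-/- and -0.18 (-0.36 to -0.01) in WT. H3 was at -0.36 (-0.73 to -0.01) in Irf4-/- and 0.05 (-0.24 to 0.34) in WT. In the Irf4-/- pair 0 of 4 members with 5 CPM or more were at least 2-fold higher, against 0.134% of all genes, and 0 were lower, against 0.217%. In the WT pair 1 of 7 members, Hist1h1e, was at least 2-fold higher among those with 5 CPM or more, against 1.06% of all genes, and 0 were at least 2-fold lower, against 0.83%. From 1 CPM on, 0 of 24 members were higher in the Irf4-/- pair (0.792% of all genes) and 4 lower (0.834%), and 5 of 29 were higher in the WT pair (2.77%) and 2 lower (1.82%). Intervals lay above 0 in 0 of the 24 members in the Irf4-/- pair (20.1% of all genes) and below 0 in 13 (17.3%). In the WT pair they lay above 0 in 11 of 29 (27.2%) and below 0 in 3 (29.7%). The Irf4-/- pair shares Irf4-/- treated with the genotype pair of injected mice, and the WT pair shares WT treated, the library that stood apart, so these ratios are not separate observations. Without WT treated, the ratios left are those of the control pair, at -0.03, and of the Irf4-/- injection pair, at -0.60.

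Single members showed the same division. Hist1h1e was at -0.95 (-1.44 to -0.51) in the Irf4-/- pair and 1.09 (0.84 to 1.36) in the WT pair. Hist1h1c was at -0.63 (-0.87 to -0.40) in Irf4-/- and 0.76 (0.58 to 0.94) in WT. Hist1h4d was at -0.44 (-0.97 to 0.06) in Irf4-/- and 0.89 (0.55 to 1.26) in WT. In the Irf4-/- pair the intervals of Hist1h2ac, at 0.15, and Hist1h4m, at -0.26, held 0, while in the WT pair these genes were at 1.29 (0.73 to 2.0) and 1.21 (0.65 to 1.91). A further set was lower in both pairs. Hist1h4i was at -0.63 (-0.98 to -0.31) in Irf4-/- and -0.42 (-0.75 to -0.10) in WT. Hist1h1b was at -1.94 (-3.42 to -1.09) in Irf4-/- and -1.0 (-1.96 to -0.25) in WT. Hist2h2be was at -0.27 (-0.55 to 0.01) in Irf4-/- and -0.24 (-0.51 to 0.01) in WT, with intervals that just hold 0.

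**Figure D4:**
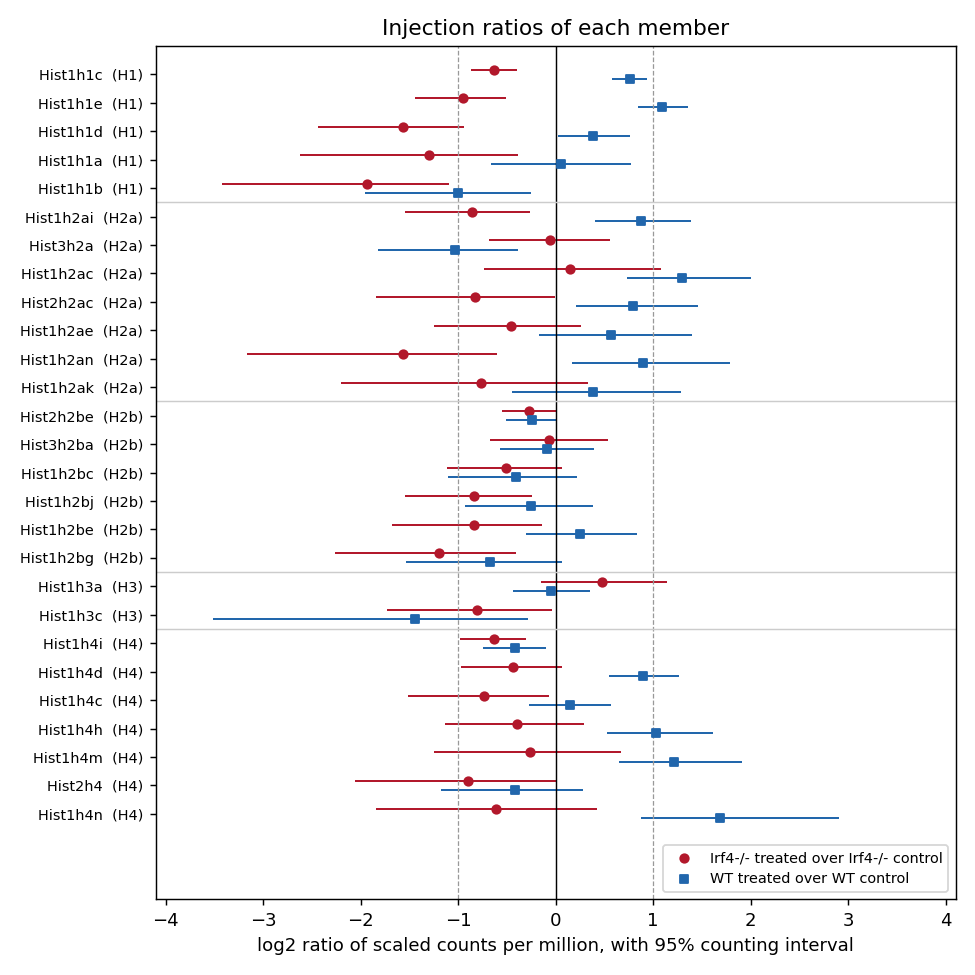
log2 ratio of each of the 27 members between injected and control mice, in Irf4-/- (circles) and WT (squares), with 95% counting intervals, and dashed lines at 2-fold. In Irf4-/- none of the intervals lies above 0 and 14 lie below, and in WT 11 lie above and 4 below.

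No member passed the test of an additive genotype or injection term. By edgeR's quasi-likelihood test, with p-values adjusted by Benjamini and Hochberg over 11998 genes, 0 of 29 members tested rose with the Irf4-/- label (1.22% of all genes) and 0 fell (0.258%). For injection 0 rose (0.333%) and 0 fell (0.392%). DESeq2 and limma-voom also called 0 members. At an unadjusted p under 0.05, 9 members had a negative and 1 a positive genotype change, against 4.38% and 6.03% of all genes, and 4 had a negative and 0 a positive injection change, against 6.84% and 7.33%. The median genotype change of the 29 was -0.61 and the median injection change -0.16, with 0.00 for all genes in either case. The smallest adjusted p for genotype was 0.156, for Hist1h4c with a change of -1.23 (SE 0.339), and Hist1h3a followed with -1.07 (SE 0.297), Hist1h1e with -1.40 (SE 0.388) and Hist1h1d with -1.44 (SE 0.428). For injection it was 0.162, for Hist1h1b with -1.55 (SE 0.457). The model has 1 residual degree of freedom and counts as error a genotype difference that appears in injected mice alone.

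The linker histone gene outside S phase control, H1f0, shared part of this pattern. H1f0 had 221 counts in Irf4-/- treated, 591 in WT treated, 121 in Irf4-/- control and 245 in WT control, or 11.9, 31.7, 7.62 and 11.6 CPM. On the log2 scale its genotype term fell by 1.05 (SE 0.21, edgeR adjusted p 0.0366, 1.11e-06 to 0.866 over the alternatives). With injection H1f0 rose by 1.09 (SE 0.21, adjusted p 0.048, 7.21e-07 to 0.536), and it was higher in both injection pairs, at 0.64 in Irf4-/- and 1.44 in WT. That differs from the replication-dependent H1 genes, which were lower in Irf4-/- treated than in Irf4-/- control. Of the 15 replication-independent histone genes, 9 were tested, 1 rose with injection and 1 fell with genotype, both times H1f0. The list summed to 2195 CPM in Irf4-/- treated, 2420 in WT treated, 2092 in Irf4-/- control and 2108 in WT control.

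Genes that process or degrade histone transcripts and genes that carry histone proteins had median log2 ratios of 0.03 and 0.01 in the injected genotype pair. By edgeR's test, DESeq2 and limma-voom, 0 of 22 processing and decay genes and 0 of 24 chaperone genes passed for either effect. At an unadjusted p under 0.05 in edgeR's test, 0 processing genes differed for genotype and 2 were lower for injection. At that cut 1 chaperone gene was higher for genotype and 3 were lower for injection. Of all genes 6.03% were higher and 4.38% lower for genotype, and 6.84% lower for injection. In WT treated over WT control the medians of these lists were -0.17 and -0.10. There 12 of 22 processing and 12 of 24 chaperone intervals lay below 0, beside 3510 of 11870 genes. Above 0 lay 3 and 1, beside 3210. Upf1, an RNA helicase needed for histone mRNA decay, had ratios of 0.11 in the injected genotype pair and -0.24 in the WT injection pair. Tut4, a uridylyl transferase, was at -0.25 and 0.15 in these pairs. The chaperone genes with the highest level, Atrx and Set, were at -0.11 and 0.03 between the injected libraries. A pair of regulators outside the rule for named genes is given for their role. Slbp, the stem-loop binding protein, had 117 CPM in Irf4-/- treated, 99.3 in WT treated, 136 in Irf4-/- control and 132 in WT control, with a ratio of 0.23 between the injected libraries, and Npat, the coactivator of histone gene clusters, was at -0.03.

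S phase and mitosis genes lay opposite to the members in the WT treated library. The 36 S phase genes summed to 1492 CPM in Irf4-/- treated, 1128 in WT treated, 1679 in Irf4-/- control and 1630 in WT control, and the 22 mitosis genes to 648, 364.9, 899.9 and 655.4 CPM. The median log2 ratio of the injected libraries was 0.42 for S phase and 0.71 for mitosis genes, beside -1.28 for the members. In Irf4-/- treated over Irf4-/- control the medians were all negative, at -0.23 for S phase genes, -0.51 for mitosis genes and -0.74 for the members. Per 100 CPM of the S phase list, the members had 5.28 CPM in Irf4-/- treated, 13.9 in WT treated, 7.17 in Irf4-/- control and 7.45 in WT control. By edgeR's test E2f2 rose with the Irf4-/- label by 1.09 (adjusted p 0.0121, but 0.501 by DESeq2 and 1.02e-14 to 0.662 over the alternatives). Rrm2, a subunit of ribonucleotide reductase, rose with the label by 0.85 (adjusted p 0.0283) and fell by 0.85 with injection (adjusted p 0.048, but 0.0618 by limma-voom and 1.91e-07 to 0.557 over the alternatives). Of the mitosis genes Mki67 and Top2a rose with the label, by 0.68 and 0.69, and Mki67, Top2a and Kif11 fell with injection, by 0.65, 0.78 and 0.72, and DESeq2 and limma-voom called these too. Tpx2, a spindle assembly factor, rose with the label by 0.78 (edgeR adjusted p 0.0417), a call lost by DESeq2 (0.115) and by limma-voom (0.0519), with 0.000302 to 0.963 over the alternatives. Each of these calls was lost with the other factor left out of the fit. The part of cell division in the members' levels was not tested.

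**Figure D5:**
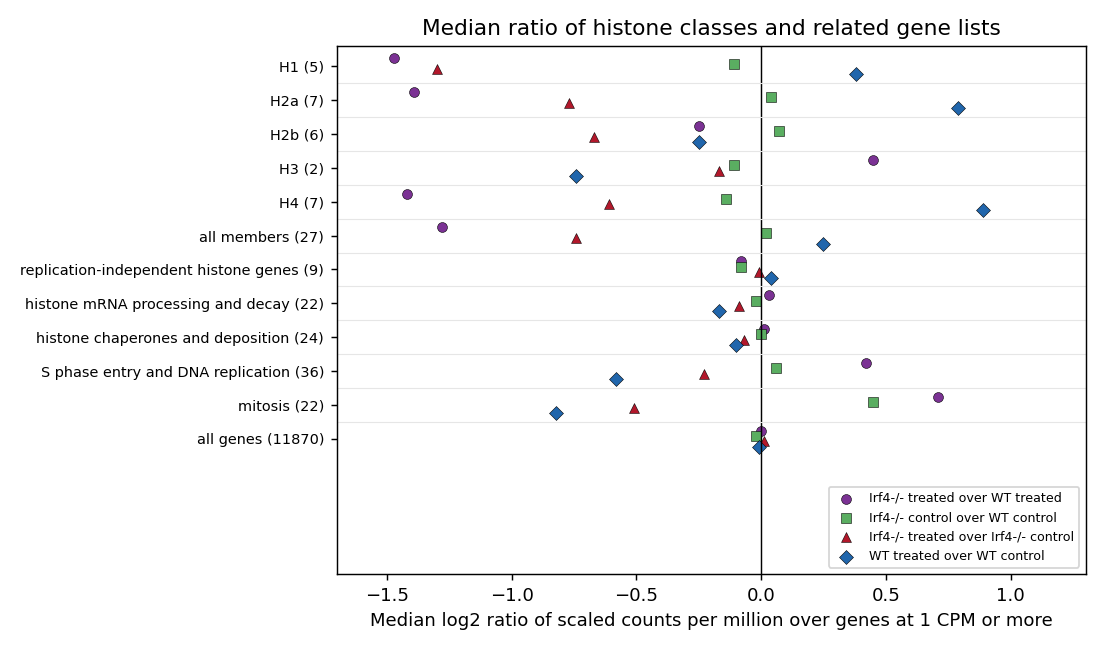
Median log2 ratio of each histone class and of related gene lists in the 4 pairs of libraries, over genes that averaged 1 CPM or more (their number in brackets). In Irf4-/- treated over WT treated the members stand at -1.28, and S phase and mitosis genes at 0.42 and 0.71.

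Markers of other cells also varied between the libraries. Monocyte and macrophage markers (12 genes) summed to 73.7 CPM in Irf4-/- treated, 90.7 in WT treated, 60.9 in Irf4-/- control and 39.3 in WT control, and B cell markers (10) to 151.6, 90.1, 176.3 and 147.7 CPM. Between the injected libraries 7 of the 12 monocyte and macrophage markers had an interval below 0 and 1, Lyz2, above it, and 8 of the 10 B cell markers had one above 0. Erythroid markers (9) summed to 107.9, 24.3, 51.3 and 40.1 CPM in those libraries, and the globin genes Hbb-bs, Hba-a1 and Hbb-bt held 93.6%, 69.1%, 80.4% and 84.5% of these sums. The erythroid list did not move as 1 group. Besides the globins Alas2 was higher in Irf4-/- treated than in WT treated, at 1.85 on the log2 scale (1.22 to 2.77), while Car1, at -1.71 (-2.61 to -1.08), and Klf1, at -1.74 (-4.20 to -0.57), were lower. Slc4a1 was lowest in Irf4-/- treated, with 13 counts, against 19 in WT treated, 29 in Irf4-/- control and 18 in WT control. Plasma cell markers (8) summed to 387.2 to 399.7 CPM, of which Ighm, Prdm1 and Xbp1 held 95.3% to 99.1%. Their other genes were far lower in level and not even. Jchain, the joining chain of secreted antibodies, had 2 counts in Irf4-/- treated, 50 in WT treated, 57 in Irf4-/- control and 56 in WT control, and Igkc, an antibody light chain, had 46, 140, 212 and 208. Both were thus lowest in the library where the members were lowest, with ratios between the injected libraries of -3.70 (-7.73 to -2.72) and -1.57 (-2.12 to -1.12). Mzb1, also low in level, went the other way at 1.41 (0.13 to 3.86), from 14 counts in Irf4-/- treated and 4 in WT treated. Of the 8 plasma cell markers, 3 had an interval above 0 in this pair (Xbp1, Mzb1 and Ighm) and 3 below it (Jchain, Prdm1 and Igkc). T cell markers (9) summed to 49.5 to 57.1 CPM, with Cd6 and Trac lower in Irf4-/- treated than in WT treated, at -2.20 and -0.97, and Cd3d higher, at 0.27. Neutrophil markers (8) summed to under 1 CPM in each library. By edgeR's test Vcam1 rose with injection by 2.0 (adjusted p 0.0172) and Lyz2 fell by 1.26 (adjusted p 0.0198), and DESeq2 and limma-voom called both. C1qc rose with injection by 1.78 (edgeR adjusted p 0.0429), but its adjusted p was 0.101 by DESeq2 and 2.44e-06 to 0.365 over the alternatives. Fcer2a fell with injection by 2.28 (edgeR adjusted p 0.048), but its adjusted p was 0.0607 by limma-voom, NA by DESeq2 and 1.8e-06 to 0.428 over the alternatives. Cd74 rose with the Irf4-/- label by 0.55 (edgeR adjusted p 0.0283), but its adjusted p was 0.0594 by DESeq2 and 0.000165 to 0.329 over the alternatives. Each of these calls too was lost with the other factor left out of the fit. Ribosomal protein genes took 4.7% of counts in Irf4-/- treated, 5.97% in WT treated, 4.32% in Irf4-/- control and 4.82% in WT control, and mitochondrial genes 0.976%, 1.14%, 0.962% and 0.905%. The part of any of these in the members' levels was not tested.

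The position of the members near Irf4 was looked at apart. The Hist1 cluster of chromosome 13 holds 52 of the 64 members and ends 6.81 Mb from Irf4 (30749226 to 30766976, GRCm38). It summed to 60.0 CPM in Irf4-/- treated, 134.8 in WT treated, 96.6 in Irf4-/- control and 95.9 in WT control, and the 9 members of the Hist2 cluster on chromosome 3 to 13.3, 16.2, 17.5 and 17.7 CPM. Hist2h2be gave 213 of the 247 Hist2 counts in Irf4-/- treated and 213 of 301 in WT treated. Between these libraries Hist2h2ac was at -1.59 (-2.54 to -0.91) and Hist2h4 at -0.91 (-2.04 to -0.03). Hist4h4 on chromosome 6 was at -2.44 (-5.43 to -1.35), from 3 and 25 counts. The 2 Hist3 members on chromosome 11 summed to 5.37 CPM in Irf4-/- treated and 5.04 in WT treated. Of 229 other genes between 21 and 31 Mb of chromosome 13, 30 were tested, and Irf4 itself was the 1 that rose with the label. None of the others fell, against 0.258% of all genes, and the median genotype change of the 30 was -0.01. Since 0 of 29 members fell in this test either, it does not set the members apart from these genes.

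Members with a stem-loop in their transcript model showed a larger difference between the injected libraries in sum than those without. The 42 with a match summed to 57.8 CPM in Irf4-/- treated (54.4 to 61.3), 128.4 in WT treated (123.3 to 133.7), 88.4 in Irf4-/- control and 93.5 in WT control, and the 22 without one to 21.03, 28.9, 31.9 and 28 CPM. Hist2h2be alone gives 213 counts to each injected library in the sum without a match. The median log2 ratios of the injected libraries were close to each other, at -1.32 for 7 members at 1 CPM or more whose model ends within 100 bases of the stem-loop, -1.11 for 13 whose model goes on for longer and -1.28 for 7 without a match. These groups were formed after the data were seen. They follow the GENCODE vM21 models, which need not be the models counted. Hist1h1d, Hist1h1e, Hist1h4d and Hist1h2ac are in the group of longer models. For them the deposited FPKM imply 744, 748, 393 and 476 bp, in place of 7425, 1930, 1138 and 2482.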

How the data were processed

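Gene counts and FPKM were deposited by the authors for 35275 genes in 4 libraries (1 per group, columns matched to the labels by name). Per the submitters' processing notes, TopHat and edgeR were used with mm10. Counter, annotation and strandedness: not given in the sources used here. Counts divided by length and library total gave the deposited FPKM for a model length that equals the GENCODE vM21 exon union within 1 bp in 34 of 55 members. Symbols come from GENCODE vM21, and members and lists were chosen with earlier results of these data known. Library pairs were compared as log2 ratios of CPM scaled by TMM (prior count 2), with exact Clopper-Pearson 95% counting intervals. A call by size needs a mean of at least 5 CPM, a 2-fold difference and an interval off 0. The additive fit (genotype and injection, genes with at least 1 CPM in 2 libraries) used edgeR 4.0.16 in R 4.3.3, glmQLFit and glmQLFTest, two-sided, with Benjamini-Hochberg adjusted p under 0.05, and DESeq2 1.42.0 and limma-voom (limma 3.58.1) as alternatives. The scripts were tested on simulated counts. Prior degrees of freedom were 9.621 and the coefficient of variation 9.981%. The error of the fit, like this coefficient, comes from departures from the additive terms, since each group has 1 library. The p-values thus measure no spread between libraries of a group, and nothing says that libraries are separate animals. Other scalings, minimums, folds, priors and leaving out each library were tried. Members were named if called, or among the 3 with the highest mean FPKM of their class. From other lists up to 4 called genes per effect were named, or else the 2 with the highest mean CPM. Further genes named were chosen after their values were seen.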

Additional observations from a re-analysis of the deposited data

Results flagged for a closer look

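In these results the injection ratio had opposite signs in the genotypes, with both counting intervals off 0 under each of the scalings tried. None of these differences between the genotypes was tested, since each group is 1 library. The summed log2 ratio of all members was -0.60 in Irf4-/- and 0.37 in WT. For the H1 sum it was -0.87 in Irf4-/- and 0.72 in WT, for the H2a sum -0.46 and 0.41, and for the H4 sum -0.59 and 0.39. Among single linker histones Hist1h1c was at -0.63 in Irf4-/- and 0.76 in WT, Hist1h1e at -0.95 and 1.09, and Hist1h1d at -1.57 and 0.38. Among H2a genes Hist2h2ac was at -0.83 in Irf4-/- and 0.79 in WT, Hist1h2an at -1.57 and 0.90, and Hist1h2ai at -0.86 and 0.87. These 6 of 27 members (22.2%) stand beside 583 of 11870 genes (4.91%) with opposite ratios in either direction. Hist2h2ac, Hist1h2an and Hist1h2ai share over 50% of their 50-base words with other genes, and the WT treated library stood apart from the rest.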

How the results depend on the processing

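The summed ratios of the members kept their sign under median-of-ratios, upper-quartile and total-count scaling, and without Hist1h1c the sum of WT treated over WT control was 0.28, against 0.37. At a mean of at least 1 CPM in place of 5, members at least 2-fold lower in Irf4-/- treated over WT treated were 14, in place of 3. At that minimum 1 member was higher and 1 lower in Irf4-/- control over WT control, 4 were lower in Irf4-/- treated over Irf4-/- control, and 5 were higher and 2 lower in WT treated over WT control. At a fold of 1.5, 3 of 4 members with 5 CPM or more were lower in Irf4-/- treated over Irf4-/- control. In WT treated over WT control 3 of 7 were higher. The share of all genes at that fold was not taken. In the additive fit 1 of 29 members fell with genotype under total-count scaling, where 53 of 11998 genes did. Without the filter on low counts 6 members fell with genotype, beside 163 of 21484 genes, and 1 fell with injection, beside 299. Counts of higher and lower genes over the whole table moved too: for genotype 146 and 31 became 319 and 163 without the filter, 197 and 53 under total-count scaling, 119 and 14 by DESeq2 and 3 and 2 with injection left out. For injection 40 and 47 became 305 and 299 without the filter, 120 and 147 under total-count scaling, 113 and 100 under upper-quartile scaling, 75 and 86 at 5 CPM in 2 libraries, and 0 and 0 with genotype left out. The cause was not tested. No named gene that passed the additive test reversed direction in an alternative run. Members that did not pass could change sign when a library was left out. Without a WT library the injection change is that of the Irf4-/- pair. It then went from 0.10 to -0.63 for Hist1h1c, from 0.21 to -0.95 for Hist1h1e and from 0.29 to -0.44 for Hist1h4d. Leaving out a library leaves no residual degree of freedom, so those fits gave values without a test. No paired analysis was possible because each group has 1 library. Members under 5 CPM rest on at most 132 counts a library, and their ratios are limited by counting error.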
